A study of Mus musculus with 3 samples.

Results

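The Hox genes encode homeodomain transcription factors that give cells their position along the body axis. The measured set held 36 genes, which were all genes with a symbol of the Hoxa, Hoxb, Hoxc or Hoxd series on a probe set annotated to a single gene, out of 22087 genes named in this way. All 36 symbols matched the RefSeq gene table, and a Hox gene without a probe set under its symbol alone was not analysed here. Hoxb5 had 2 probe sets and was represented by the brighter, and every other Hox gene had 1.

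The values came from Affymetrix arrays, on which biotin-labelled RNA binds probes grouped into probe sets. There were 3 samples in 1 group, sorted stroma from mouse tumours with the genotype label Dicer1 +/-. Dicer1 encodes the nuclease that cuts microRNA precursors. The samples were sorted by flow cytometry as live cells that lacked PECAM1, which endothelial cells carry on their surface, and the red fluorescent protein tdTomato, which marked the tumour cells. The labels give no strain, age, tumour site or driver of the fluorescent protein and do not say whether each sample was a separate animal. An SD here therefore covers the spread of these 3 samples and may be partly technical. Xist, which female cells express, had the largest range over the samples of all named genes, 6.35 on the log2 scale. The part of sex in the differences between samples below was not tested. Stroma of Dicer1 +/+ tumours was not analysed here, and no value below bears on the effect of the genotype.

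In the embryo, Hox genes are switched on in the order of their place in the cluster, the low-numbered genes in anterior and the high-numbered genes in posterior tissue. Connective tissue cells of the adult keep a Hox pattern that reflects where in the body they arose, and mesenchyme of the face and anterior skull, which comes from anterior neural crest, forms without Hox expression. Polycomb proteins keep silent clusters off and Trithorax proteins keep active genes on. Hox proteins bind DNA together with partners of the Pbx and Meis families. Some Hox genes also act in blood progenitors.

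The level given for a gene is the deposited log2 intensity. A gene was called detected when it lay on every array above a background reference, the 95th percentile of 1438 probe sets for chemosensory (olfactory, vomeronasal, taste) receptors. The reference stood at 5.16, 5.11 and 5.20 in samples 1 to 3. Probe sets differ in brightness, so levels of different genes are not ranked against each other. Of 20658 named genes outside the receptors, 12508 were detected (60.5%), as were 60 of 1429 receptor genes (4.2%). The array medians lay between 5.34 and 5.36. Fibroblast, pericyte, macrophage and neutrophil markers were detected in full (10 of 10 genes in each list), as were 7 of 7 T cell and 7 of 9 B cell markers. Pecam1 was detected in each sample (8.02, 7.20 and 8.25), with 7 of 10 endothelial markers, and so were 8 of 10 myogenic markers. Of 9 epithelial markers 4 were detected. Lipf of that list exceeded the background in sample 2 alone, at 3.11, 9.24 and 3.42. The part of the tissue behind this signal in the differences between samples was not tested. In a bulk sample, fewer cells of a type and less RNA per cell cannot be told apart.

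The sequences below belong to the parts of the Hox clusters on which the results turn. The HoxD cluster of chromosome 2 holds Hoxd8, Hoxd9 and Hoxd10 side by side on the plus strand, and the outer genes of this run were detected while the middle gene was not. The 250 bases before the start of each are shown 5′ to 3′ from RefSeq, build GRCm38.p6, with CG dinucleotides in capitals, at chr2:74704365-74704614, chr2:74697513-74697762 and chr2:74691641-74691890.
Hoxd8: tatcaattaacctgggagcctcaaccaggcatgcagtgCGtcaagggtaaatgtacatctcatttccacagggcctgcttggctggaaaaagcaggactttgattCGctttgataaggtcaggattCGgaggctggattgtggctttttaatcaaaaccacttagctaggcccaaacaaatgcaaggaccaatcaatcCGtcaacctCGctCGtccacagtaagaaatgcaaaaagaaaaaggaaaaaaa
Hoxd9: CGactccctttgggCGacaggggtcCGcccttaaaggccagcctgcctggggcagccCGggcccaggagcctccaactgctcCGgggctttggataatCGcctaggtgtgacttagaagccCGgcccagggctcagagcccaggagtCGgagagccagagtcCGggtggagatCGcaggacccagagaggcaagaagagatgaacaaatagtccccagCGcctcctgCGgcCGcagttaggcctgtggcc
Hoxd10: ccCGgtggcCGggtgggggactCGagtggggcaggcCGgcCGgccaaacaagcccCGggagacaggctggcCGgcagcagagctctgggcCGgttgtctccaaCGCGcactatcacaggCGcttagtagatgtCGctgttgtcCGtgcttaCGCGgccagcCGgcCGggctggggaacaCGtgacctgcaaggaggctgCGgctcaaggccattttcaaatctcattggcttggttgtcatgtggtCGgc

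CG dinucleotides, the sites of DNA methylation, numbered 6 in the Hoxd8 window, 13 in that of Hoxd9 and 20 in that of Hoxd10, and the share of G and C was 44.4%, 65.2% and 65.6%. The detected pair therefore held both the fewest and the most. Of the measured Hox genes, 20 matched the promoter table, with 22 windows whose median was 12.5 CG dinucleotides. The median was 6 over 32851 windows of the table, from which a chromosome without Hox genes was left out. The windows of the other detected genes with an entry held 6 (Hoxa2) and 14 (Hoxb4). The motif TGATNNAT, which Hox and Pbx proteins bind together, was searched on both strands. It occurred in 4 of the 22 Hox windows (18.2%) and in 7.68% of the 32851 windows. The motif was in none of the windows shown, was in that of Hoxa2, and was also in windows of genes that were not detected, Hoxb1, Hoxb8 and Hoxd11. A match is a description of the letters, not a bound site.

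The Hox clusters also carry microRNA genes, whose precursors are substrates of Dicer. The precursor genes with a probe set of their own were Mir10b in HoxD, Mir196a-1 in HoxB, and Mir196a-2 and Mir615 in HoxC. The main mature products are shown from RefSeq, build GRCm38.p6, with the seed, bases 2 to 8, in capitals. That of Mir10b lies at chr2:74726074-74726096, plus strand. The product shared by both Mir196a genes lies at chr11:96265187-96265208, plus strand and chr15:102973365-102973386, plus strand. Those of Mir615 lie at chr15:103014926-103014947, plus strand (miR-615-5p) and chr15:103014969-103014990, plus strand (miR-615-3p). The entries for miR-10a and miR-196b, whose genes had no probe set of their own, are added because each shares its seed with a measured gene. They lie at chr11:96317186-96317208, plus strand and chr6:52230129-52230150, minus strand.
miR-10b-5p: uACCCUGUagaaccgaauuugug
miR-10a-5p: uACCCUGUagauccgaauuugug
miR-196a-5p: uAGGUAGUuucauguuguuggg
miR-196b-5p: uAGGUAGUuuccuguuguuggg
miR-615-3p: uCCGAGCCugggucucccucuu
miR-615-5p: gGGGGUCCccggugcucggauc

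Most Hox genes were not above background in this stroma. Of the 36, 5 were detected on all 3 arrays (13.9%), against 60.5% of named genes, namely Hoxa2, Hoxb4, Hoxb5, Hoxd8 and Hoxd10. Another 2, Hoxb2 and Hoxb3, passed on some arrays, and 29 passed on none. The share that passed on at least 1 array was thus 19.4%, against 66.0% of named genes. HoxC was the cluster with no detected member, at 0 of 9, and the counts were 1 of 9 in HoxA, 2 of 10 in HoxB and 2 of 8 in HoxD. By position, 2 of 10 genes in paralogue groups 1 to 4 were detected, 2 of 11 in groups 5 to 8 and 1 of 15 in groups 9 to 13. The counts per cluster and position are small and were not tested against each other. The median of the Hox levels lay above 89.5% of the receptor probe sets, so as a set these probe sets were brighter than the middle of the reference while most stayed under its 95th percentile. A gene below the reference may still be expressed at a level these probe sets do not separate from background.

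**Figure D1:**
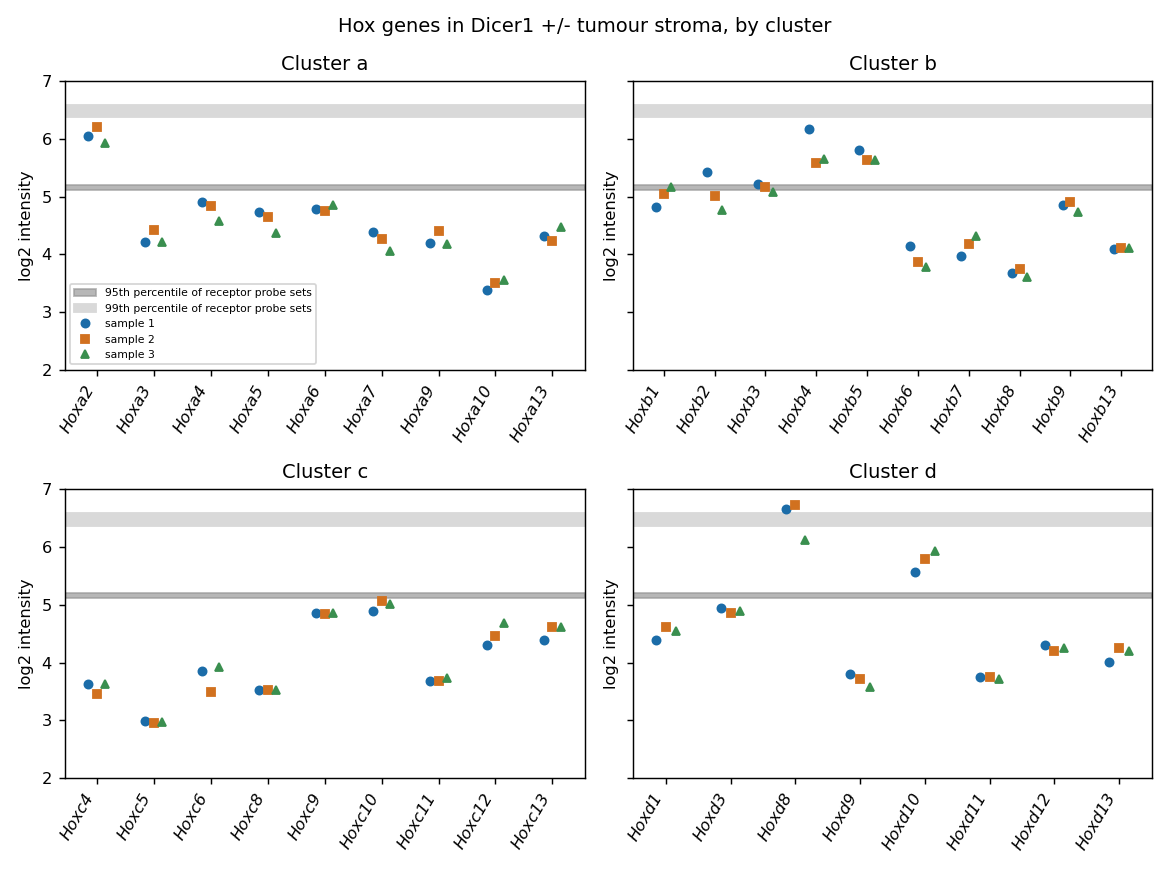
Log2 intensity of each measured Hox gene in samples 1 to 3, with 1 panel for each cluster and genes in the order of their number. The dark band spans the 95th and the light band the 99th percentile of receptor probe sets over the arrays. Hoxa2, Hoxb4, Hoxb5, Hoxd8 and Hoxd10 lie above the dark band in every sample, and Hoxd8 in samples 1 and 2 alone reaches above its array's 99th percentile.

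The count depended on the percentile. With the 90th percentile in place of the 95th, 14 Hox genes were detected (38.9%, against 72.0% of named genes), and with the 99th none was (against 38.1%). Hoxd8 exceeded the 99th percentile in samples 1 and 2. Under each of these settings the Hox share was below that of all named genes.

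Hoxd8, which patterns the trunk, was at 6.65, 6.72 and 6.12 in samples 1 to 3, with a mean of 6.50 ± 0.33 (SD, n = 3). Sample 3 was the low sample, and the 1.52-fold range between the samples came from it, since without it the range was 0.072 on the log2 scale, from 0.60. All 10 fibroblast markers were also lowest in sample 3, with a mean level of 10.03, 10.47 and 9.45. Of the 10 pericyte and smooth muscle markers 8 were lowest there, with a mean level of 8.54, 9.26 and 8.21, and Cspg4 and Des were lowest in sample 1. The mean of the 10 macrophage and monocyte markers was lowest in sample 3 as well, at 10.23, 10.27 and 9.89, with 5 of the genes lowest there. Other lists had their highest mean level in sample 3. The cartilage and bone list was at 7.32, 7.90 and 8.43, with 8 of 9 genes highest there. Neutrophil markers were at 10.36, 10.73 and 11.14, endothelial at 5.55, 5.53 and 6.29. Myogenic markers were at 6.50, 6.46 and 7.02, progenitor at 6.90, 6.97 and 7.20. All members of the fibroblast, pericyte and macrophage lists were detected. The part of any of these cells in the Hoxd8 values was not tested.

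Hoxd10, which acts in hindlimb and spinal motor neuron patterning, was at 5.57, 5.80 and 5.92, with a mean of 5.76 ± 0.18 (SD, n = 3). Its lowest value was in sample 1 and its highest in sample 3, the sample in which Hoxd8 was lowest. Without sample 1 its range fell from 0.35 to 0.13. Hoxd9, which lies between them, was at 3.80, 3.71 and 3.58, at least 1.37 below the background on every array. By this call the detected genes of HoxD were not a continuous run. The gap rests on 1 probe set for Hoxd9, which may not separate a low level from background. The other measured members of the cluster had means of 4.52 (Hoxd1), 4.90 (Hoxd3), 3.74 (Hoxd11), 4.25 (Hoxd12) and 4.15 (Hoxd13). None of these exceeded the background on any array. Hoxd11, Hoxd12 and Hoxd13 build the distal limb.

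Hoxa2, which specifies the second pharyngeal arch and the hindbrain, was at 6.04, 6.21 and 5.93, with a mean of 6.06 ± 0.14 (SD, n = 3). Every sample lay at least 0.73 above the background. It was the detected gene of HoxA. Its neighbour Hoxa3, which shapes the throat and thymus, was at 4.22, 4.43 and 4.22. The trunk genes Hoxa4, Hoxa5, Hoxa6 and Hoxa7 had means of 4.78, 4.58, 4.79 and 4.23. Hoxa5 patterns the lung and the neck and shoulder region. Hoxa9, a regulator of blood progenitors, was at 4.19, 4.41 and 4.17, at least 0.71 below the background on every array. Of the 10 progenitor markers 8 were detected, among them Myb at 8.98, 9.05 and 9.42. Tal1, at 5.05, 5.56 and 5.22, passed on 2 arrays and Mecom, at 4.78, 4.78 and 4.86, on none. The part of progenitor cells in the Hoxa9 values was not tested. The posterior genes Hoxa10 and Hoxa13, needed in the reproductive tract and distal limb, had means of 3.48 and 4.34.

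Hoxb4, which promotes self-renewal of blood stem cells, was at 6.17, 5.58 and 5.65, with a mean of 5.80 ± 0.32 (SD, n = 3). Sample 1 was high, and samples 2 and 3 were close to each other. Without sample 1 the 1.5-fold range closed from 0.59 to 0.075 on the log2 scale. Lymphocyte markers had their highest mean level in sample 1 as well. The 9 B cell genes were at 8.90, 7.49 and 7.73, with 8 of them highest in sample 1 and Ebf1 highest in sample 2, and the 7 T cell genes, all highest in sample 1, were at 7.71, 5.82 and 6.83. The 10 progenitor markers went the other way, with a mean level of 6.90, 6.97 and 7.20 and 6 of them lowest in sample 1. Every gene of the B cell and T cell lists exceeded the background in at least 1 sample, Mecom of the progenitor list in none, and the part of these cells in the Hoxb4 values was not tested.

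Hoxb5, which acts in vessel and enteric nerve development, was at 5.80, 5.62 and 5.62, with a mean of 5.68 ± 0.10 (SD, n = 3). Samples 2 and 3 held exactly equal values, which lowers the SD. Its 2 probe sets disagreed. The dimmer was at 4.96, 4.95 and 5.15, below the background on each array, so the call rests on the brighter. The RefSeq table places the antisense gene Hoxb5os over Hoxb5, and the strand that each probe set reads is not given in the sources used here, so signal of the pair cannot be told apart.

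Hoxb2 and Hoxb3, hindbrain genes next to Hoxb4, stood at the threshold. Hoxb2 was at 5.43, 5.0 and 4.76 and passed in sample 1, with the largest range of all Hox genes at 0.67 on the log2 scale. This range was 0.25 without sample 1 and 0.43 without sample 3. Hoxb3 was at 5.21, 5.17 and 5.09 and passed in samples 1 and 2 by 0.054 or less. In both, sample 1 was the high and sample 3 the low sample. Hoxb1, the hindbrain gene at the end of the cluster, was at 4.83, 5.04 and 5.16, just under the background in sample 3. The other genes of HoxB had means of 3.93 (Hoxb6), 4.16 (Hoxb7), 3.68 (Hoxb8), 4.83 (Hoxb9) and 4.10 (Hoxb13), so those numbered 6 and above were below the background in every sample.

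In HoxC no gene exceeded the background on any array. Hoxc4, Hoxc5, Hoxc6 and Hoxc8, which pattern the neck and thorax, had means of 3.57, 2.97, 3.75 and 3.52. Hoxc5 lay above 44.5% of the receptor probe sets, near the middle of the reference. Hoxc9 and Hoxc10, of the lower trunk and hindlimb, came nearest, at 4.85 and 4.99, and Hoxc10 was 0.051 below the background in sample 2. Hoxc11, Hoxc12 and Hoxc13, the last known for its role in hair and nail, had means of 3.70, 4.49 and 4.54.

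The 5 detected Hox genes had a median SD of 0.18 over the samples, against 0.16 over all detected named genes. Over all 36 the median SD was 0.12, 31 of them not detected, and over the receptor genes it was 0.12 as well. Of the 7 Hox genes above background on at least 1 array, none had a range above 1 (2-fold), as against 5.7% of the 13636 named genes that passed on at least 1 array. With so few members this share is not distinct from the background. Ranges above 0.5 occurred in 3 genes, Hoxb2, Hoxb4 and Hoxd8. The medians over the 5 detected genes of the difference from the mean of the 3 samples were 0.12, 0.032 and -0.13 for samples 1 to 3, against -0.0050, 0 and -0.0013 over all detected named genes. The value of sample 1 was 0.029 with the mean of a gene's probe sets and -0.0075 without sample 3, and over all 36 genes the medians were 0.00046, 0.015 and -0.00085. The members did not share an order of samples: Hoxb4 and Hoxb5 were highest in sample 1, Hoxa2 and Hoxd8 in sample 2 and Hoxd10 in sample 3. Across the 36 genes, Pearson's r between arrays was 0.954 to 0.975, a description over genes that share these libraries. In 6 of the 36 Hox genes a pair of samples held exactly equal values (Hoxa3, Hoxb5, Hoxb13, Hoxc4, Hoxc9 and Hoxc11), and their SDs may understate the spread. Equal values also occurred in 3293 of the 20658 named genes, so they were not particular to the Hox genes.

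**Figure D2:**
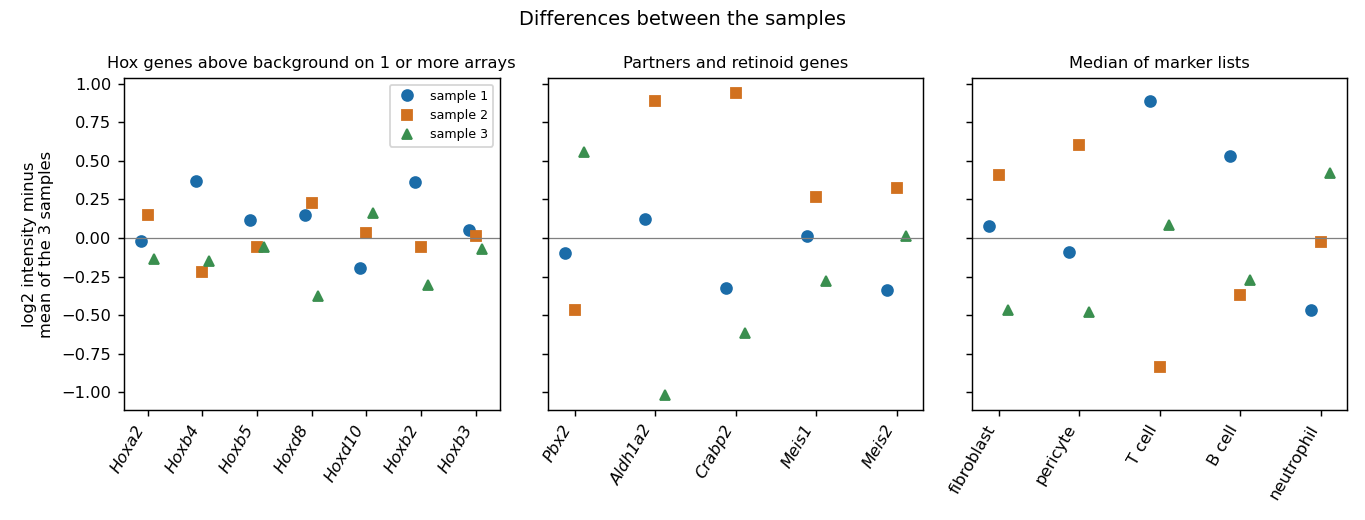
Difference between each sample's log2 intensity and the mean of samples 1 to 3, for the 7 Hox genes above background on at least 1 array (left), for genes of the Hox partner and retinoid lists (middle) and as medians of marker lists (right). Hoxd8 is lowest in sample 3 and Hoxb4 highest in sample 1, and Aldh1a2 and Crabp2 span more than any Hox gene.

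Among noncoding genes of the clusters, 7 of 18 listed symbols were measured and 1 was detected (14.3%, against 60.5% of named genes). This was Mir615, the precursor gene that the RefSeq table places within Hoxc5, at 5.39, 5.50 and 5.44, with a mean of 5.44 ± 0.058 (SD, n = 3). Its host Hoxc5 was below the background in every sample. Mir10b was at 2.72, 2.59 and 2.45, Mir196a-1 at 3.92, 3.70 and 3.94, and Mir196a-2 at 4.0, 4.08 and 3.91, all under the background. These probe sets read precursor or host transcripts, and the amounts of the mature microRNAs printed above were not measured. Hotair, the HoxC transcript studied for its link to Polycomb, was at 4.31, 4.38 and 4.31. The antisense transcripts Hoxaas3, at 5.39, 4.99 and 5.18, and Hoxd3os1, at 4.87, 5.13 and 5.09, each passed on 1 array.

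Transcripts for most of the proteins with which Hox factors work were detected, and the proteins were not measured. Of 9 measured partners 8 were detected (88.9%), against 60.5% of named genes, and Pbx4 was the exception. Pbx3 had a mean of 6.38 ± 0.15, Meis1 6.85 ± 0.27 and Meis2 6.62 ± 0.33 (SD, n = 3 each). Pbx2 was at 7.43, 7.06 and 8.09, a range of 1.02 with sample 3 high. It was the partner with a range above 1 among the 8 above background on at least 1 array, beside 5.7% of named genes. Its range was 0.37 without sample 3 and 0.66 without sample 2.

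The chromatin regulators of the clusters were detected almost in full, 19 of 21 Polycomb genes (90.5%) and 19 of 19 Trithorax and related genes (100%). The share of all named genes was 60.5%. Ezh2, the Polycomb methyltransferase, had a mean of 8.82 ± 0.26, its partners Eed and Suz12 9.14 ± 0.23 and 8.25 ± 0.31, and Ezh1 7.46 ± 0.081 (SD, n = 3 each). Kmt2a, the methyltransferase best known for sustaining Hox expression in blood cells, had a mean of 8.57 ± 0.13, Kmt2b 7.48 ± 0.26, Kmt2c 8.96 ± 0.14 and Kmt2d 7.86 ± 0.25 (SD, n = 3 each), Kmt2d with equal values in samples 1 and 2. The Polycomb genes Phf19 and Cbx8 missed detection on some arrays. None of the measured genes of either list had a range above 1, beside 5.7% of named genes above background on at least 1 array. The lists are small, and this count was not tested against that share.

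Of 20 upstream regulators 12 were detected (60%), against 60.5% of all named genes. Cdx1, Cdx2 and Cdx4, which activate trunk Hox genes in the embryo, were below the background in every sample, with means of 4.01, 4.10 and 3.58. Egr2, a hindbrain regulator that is also an immediate early gene, had a mean of 8.41 ± 0.31, and the retinoid receptors Rara, Rarg and Rxra 7.90 ± 0.27, 6.98 ± 0.15 and 7.23 ± 0.14 (SD, n = 3 each). Of the 14 above background on at least 1 array 2 had a range above 1, beside 5.7% of named genes, and these were Aldh1a2 and Crabp2. Aldh1a2, which makes retinoic acid, was at 6.07, 6.84 and 4.93, the last below the background, and Crabp2, which carries it to the nucleus, at 6.95, 8.21 and 6.66. In both, sample 2 was the high and sample 3 the low sample, as in the mean levels of the fibroblast, pericyte and macrophage lists given beside Hoxd8. The part of those cells in these values was not tested. Without sample 3 the ranges of Aldh1a2 and Crabp2 were 0.76 and 1.26, from 1.90 and 1.55, and without sample 2 they were 1.14 and 0.29.

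Other regulators of position gave a different count from the Hox genes. Of 41 measured genes of limb, trunk and craniofacial mesenchyme 26 were detected (63.4%), close to the 60.5% of all named genes. None had a range above 1, beside 5.7% of named genes above background on at least 1 array, a difference that was not tested. Tbx1, of the pharyngeal arches, was at 5.40, 5.69 and 6.28, Tbx2 at 5.94, 6.73 and 6.46, Tbx3 at 6.92, 7.30 and 7.36, and the hindlimb gene Tbx4 at 5.60, 5.36 and 5.88. The following genes of this list were chosen after their values were seen. Prrx1, a mesenchymal homeobox gene, had a mean of 9.43 ± 0.17, Dlx5, which patterns the jaw and bone, 7.51 ± 0.47, Twist1 6.98 ± 0.45 and Barx1, of jaw and stomach mesenchyme, 6.53 ± 0.23 (SD, n = 3 each). Tbx5 and Pitx1, which mark forelimb and hindlimb, were below the background in every sample, at 4.57 ± 0.26 and 4.89 ± 0.044 (SD, n = 3 each), as were Evx1 and Evx2, the homeobox genes beside HoxA and HoxD.

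Families of developmental regulators, taken by symbol after the Hox count was known, served as another frame for it. Of 152 genes of the Fox, Sox, Tbx, Pax, Nkx, Irx, Lhx, Pou, Dlx, Gata and sine oculis homeobox series, some of them also in the list above, 70 were detected (46.1%). The family shares ran from 20% for Pax (2 of 10) to 60% for Fox (27 of 45), and Gata, with 2 of 8, was at 25%. The Hox share of 13.9% was below each of these 11 shares. The difference was not tested, because genes of a family are not independent and the Hox genes were chosen as a group.

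**Figure D3:**
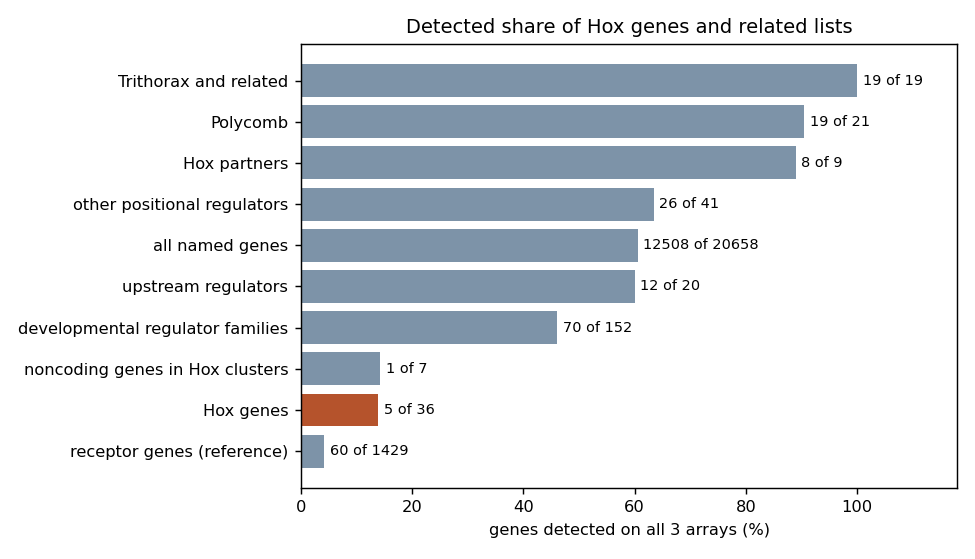
Share of genes detected on all 3 arrays in each list, with the number detected and measured beside each bar. Hox genes (5 of 36) and noncoding genes of the Hox clusters (1 of 7) lie below all named genes (60.5%), while Polycomb, Trithorax and partner genes lie above.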

How the data were processed

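Gene expression was measured on Affymetrix arrays in 3 samples of 1 group. The values deposited by the authors are log2 intensities of probe sets, a scale inferred from their span of 2.00 to 13.18. The submitters' processing notes name Partek, without version or role. Background correction, normalization and probe summary are not given in the sources used. GEO's platform annotation gave a single symbol to 23094 of 31873 probe sets, more than 1 to 1764 and left 7015 unnamed here. Only those with a single symbol were used, with the brightest probe set per gene. The labels give 1 group, so no test between groups was run. The detected share, the range over samples and a 2-fold range threshold were computed with Python 3.11.15 and pandas 2.3.3. The calls were tested on simulated data. The raised probe sets there lay further above the background than the lowest sample of any detected Hox gene. That simulation therefore does not bear on calls near the threshold. The number of arrays limits the precision.

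The members and the 6 pathway and 11 marker lists were chosen with earlier results of these data known. Named were every Hox gene, measured noncoding genes of the clusters and, of the other pathway lists, the first 4 detected members and those with a range above 1. Xist, Pbx4, the Cdx genes, Phf19, Cbx8, single marker genes beside a list and the positional genes so marked were chosen after their values were seen. Alternatives changed the detection level, probe-set summary, normalization and size threshold, or left out a sample. Array coordinates are not given; sequences are RefSeq's.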

Additional observations from a re-analysis of the deposited data

Results flagged for a closer look

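Beside the probe sets with a single symbol, 7 probe sets were annotated to a Hox gene together with another gene and entered no count. Of these, 2 lay above the background reference on all 3 arrays, which is a signal outside the measured set. The probe set in HoxA was at 6.20, 6.50 and 6.42 in samples 1 to 3 and that in HoxB at 6.17, 6.07 and 6.10. A further probe set, in HoxD, was at 5.21, 4.99 and 5.28 and passed in samples 1 and 3. Another in HoxA was at 5.56, 5.05 and 5.05 and passed in sample 1. Which of the annotated genes gave the signal was not tested.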

How the results depend on the processing

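The count of 5 detected Hox genes was the same with the mean over arrays, with each array's median as background, with the mean of a gene's probe sets, and after quantile normalization or median centring, and stayed within 1.5 times when a sample was left out (lowest 5, highest 6) or 1 array sufficed (7). It was 14 with the 90th percentile, with 3, 6 and 2 in HoxA, HoxB and HoxC, 7 in paralogue groups 1 to 4 and 4 in groups 9 to 13. It was 0 with the 99th, hence 0 in every cluster and position. With 1 array sufficing, the Hox share was 19.4%, against 66.0% of named genes, and HoxB and groups 1 to 4 had 4 each. With a 1.5-fold threshold 3 Hox genes passed the range, and the share of named genes at this threshold was not computed. With the 99th percentile 4 partners, 6 upstream, 6 other positional and 0 noncoding genes were detected. Noncoding genes numbered 3 with the 90th percentile or with 1 array and 2 with the mean over arrays. Ratios of signal to background limit every call near the threshold. No paired analysis was possible because there is 1 group.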
